A study of Mus musculus with 4 samples.

Results

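The genes described here encode the core proteins of the spliceosome and the hnRNP and SR proteins that bind pre-mRNA. They were taken by symbol, as every gene of the array annotation whose name begins with Hnrnp, Srsf, Sfrs, Snrp, Lsm and a digit, Sf3a, Sf3b or Prpf. This gave 75 genes of the 24185 symbols on the array, with 128 probes, and all 75 were among the 19698 genes tested. RNA immunoprecipitation (RIP) isolates a protein on antibody-coated beads, and the RNA that stays attached is purified and measured. The RIP-microarray data consist of 4 one-color arrays, with 2 arrays of RNA recovered with CPEB2 IgG and 2 of RNA recovered with control IgG. The lysate came from cortex and hippocampus of 8-week-old male C57BL/6 mice, for which the labels name no engineered allele. Beads and lysate were held together for 3 h, and 0.2 µg of RNA was labeled per array. In each of 2 experiments the lysate was shared between both antibodies, so every difference below is CPEB2 IgG minus control IgG within an experiment. A description field of the CPEB2 IgG samples names CPEB3 instead, while their titles, the protocol and the study's methods name CPEB2.

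In splicing, small nuclear RNAs with their proteins (the U1, U2, U4, U5 and U6 snRNPs) assemble on the splice sites of a pre-mRNA. SR proteins generally promote the use of an exon, and hnRNP proteins package the transcript and often oppose it. Several hnRNP proteins also accompany mRNA to the cytoplasm, and in neurons to dendrites and axons. CPEB2 belongs to a family of cytoplasmic RNA-binding proteins that regulate translation through U-rich elements in mRNA 3′ ends. What was measured is the mRNA that encodes the splicing proteins, not the proteins and not splicing. Because a tissue lysate was used, a message present in more cells and more of it per cell cannot be told apart, and unbound input RNA was not analysed here.

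The arrays were alike in quality, with 68.4% to 74.1% of spots well above background and no saturated spot. All 6 neuronal, 4 astrocyte, 4 oligodendrocyte, 4 microglial and 3 endothelial markers were above background on the 4 arrays, and 2 of 4 markers of other tissues were too. All arrays lay on 1 slide, and each antibody had its own positions there, so position and antibody cannot be told apart. Nothing in the labels says how many animals stand behind an experiment, and p-values rest on these arrays only. A processed signal is the scanner software's background-corrected intensity of a spot, and levels are compared between antibodies for one probe, never between probes. The brightest detected probe stood for its gene. Calls were made at an adjusted p of 0.05 with limma and Benjamini-Hochberg adjustment over all 19698 genes. This test was used because an exact permutation test of 2 arrays against 2, even without the pairing, cannot go below p = 0.333 (two-sided). The fit leaves 1 residual degree of freedom per gene, so limma draws the spread of a gene toward one common to all genes tested. An adjusted p therefore does not measure the SD between experiments printed beside it.

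With CPEB2 IgG, 24 of the 75 genes were higher and 15 were lower by this test. Over all genes tested, 21.2% were higher and 20.4% were lower, so the members' share on the higher side lay above the background and their share on the lower side was close to it. Background shares moved to 26.5% and 16.8% after centring on the median and to 22.2% and 11.8% after scaling to spike-in probes, where the members gave 29 and 12 and then 24 and 10. The median log2 difference of the members was 0.31, against -0.11 over all genes. Families differed in their counts. Of 18 hnRNP genes, 10 were higher and 1 was lower (median 0.96), and of 12 SR genes, 4 were higher and 1 was lower (median 0.57). The 12 Snrp genes, which encode snRNP proteins, gave 5 higher and 3 lower (median 0.15), and the 12 Lsm genes gave 4 higher and 3 lower (median 0.14). None of the 8 Sf3 genes was higher and 2 were lower (median -0.19), while the 13 Prpf genes gave 1 higher and 5 lower (median 0.18). The experiments had opposite signs for 8 of the 75 genes, and for 20.3% of all genes. Both CPEB2 IgG arrays lay above both control IgG arrays for 38 members and below them for 26, against 33.7% and 38.2% of all genes. The study's methods required a raw signal over 1000, an enrichment over 1.5-fold and a cytoplasmic polyadenylation element in the 3′ untranslated region. The first 2 were read here as a mean fold change over 1.5 and a raw signal over 1000 on a CPEB2 IgG array. They were passed by 29 members and by 16.4% of all genes, and the third was not applied.

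**Figure D1:**
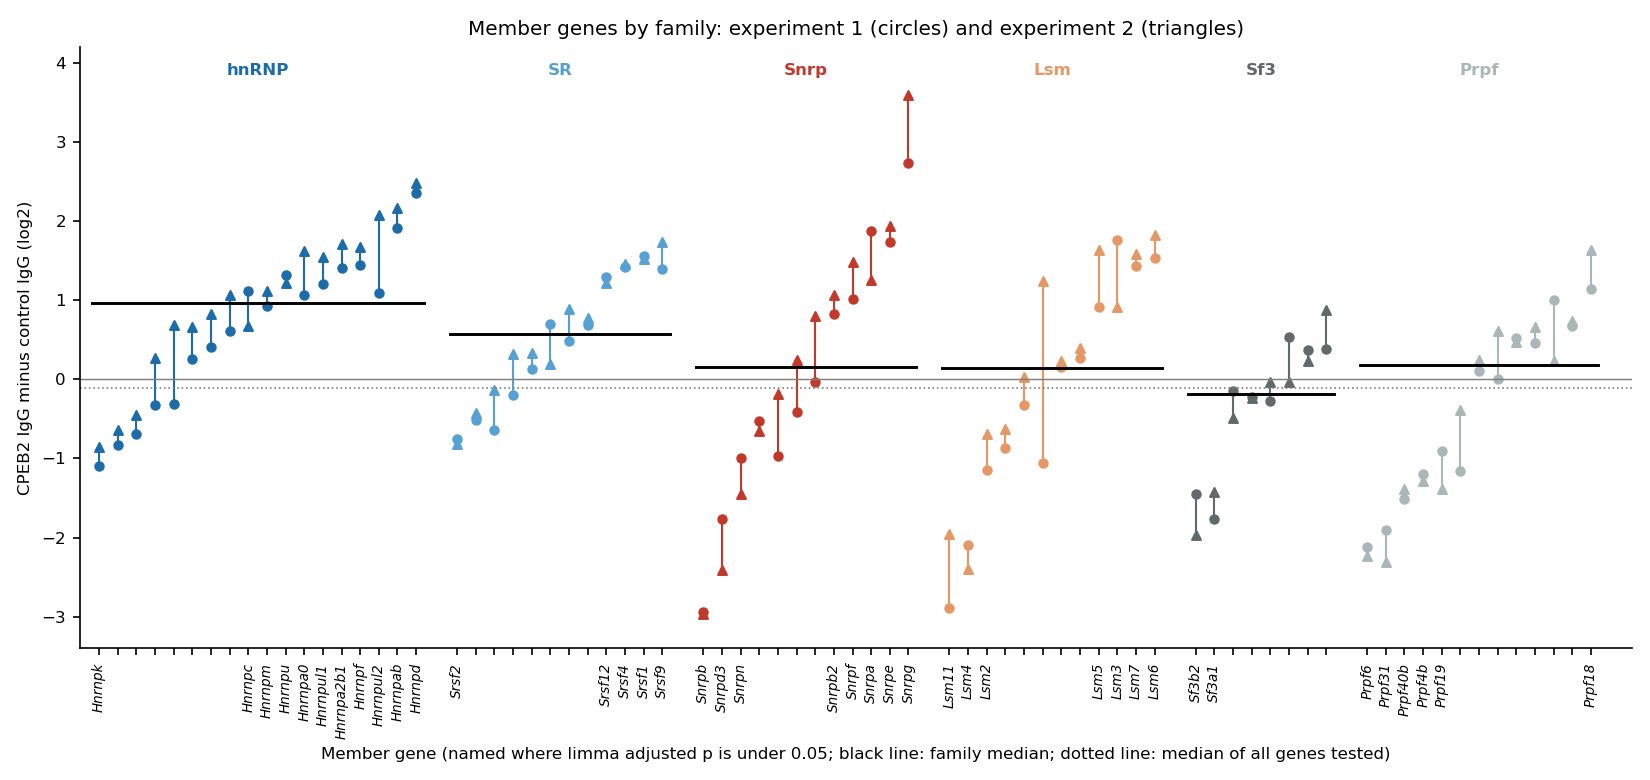
Each column is a member gene, with the log2 difference of CPEB2 IgG minus control IgG in experiment 1 (circle) and experiment 2 (triangle). Black lines are family medians, from 0.96 for hnRNP to -0.19 for Sf3, the dotted line is the median of all genes at -0.11, and gene names are printed for columns with an adjusted p under 0.05 by limma. The hnRNP and SR columns lie mostly above 0, while Snrp and Lsm reach far in both directions.

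Among the hnRNP genes, *Hnrnpd* stood highest. It encodes AUF1, which binds AU-rich elements and governs the decay of many mRNAs. Its processed signal reached 28401 and 28524 with CPEB2 IgG, against 5858 and 5209 with control IgG. The mean log2 difference was 2.42 ± 0.08 (SD, n = 2 experiments), a 5.35-fold difference with an adjusted p of 0.00543 by limma. *Hnrnpab*, whose product binds mRNAs carried into dendrites, followed with 17644 and 17967 against 4974 and 4063, a difference of 2.04 ± 0.18 (adjusted p = 0.00613, limma). *Hnrnpul2*, a relative of the scaffold protein gene *Hnrnpu*, gave 6047 and 11950 against 3013 and 2869. Its difference of 1.59 ± 0.70 was called (adjusted p = 0.0198, limma), and the experiments differed by 1.09 and 2.08. *Hnrnpa2b1*, which encodes a carrier of dendritic and axonal mRNAs, was 2.96-fold higher, and *Hnrnpf*, which encodes a binder of G-rich sequence, was 2.95-fold higher. *Hnrnpul1*, *Hnrnpa0*, *Hnrnpu*, *Hnrnpm* and *Hnrnpc* completed the 10 called higher, with log2 differences from 0.89 to 1.38. *Hnrnpd*, *Hnrnpul2*, *Hnrnpu* and *Hnrnpm* had 1 detected probe each, so their values stand for 1 stretch of the message. Probes of *Hnrnpab*, *Hnrnpf* and *Hnrnpc* were called in opposite directions, as given below.

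*Hnrnpk*, which encodes a binder of C-rich sequence, was the hnRNP gene called lower. Its signals of 686 and 842 with CPEB2 IgG lay below 1554 and 1538 with control IgG, a difference of -0.97 ± 0.18 (adjusted p = 0.031, limma). The call was lost with the same probe after median centring (-0.74, adjusted p = 0.0812, limma) and spike-in scaling (-0.76, adjusted p = 0.097). A different probe of the gene was the brightest after normexp background correction, and gave 0.05 in its place. *Hnrnpl* (-0.73 ± 0.13, adjusted p = 0.0627, limma) and *Hnrnph2* (-0.57 ± 0.17, adjusted p = 0.115) were not called. Their arrays did not overlap between antibodies, as for 38.2% of all genes on the lower side. *Hnrnpa1*, which encodes a splicing repressor, was close to 0 at -0.03, with -0.33 in one experiment and 0.27 in the other.

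Of the 12 SR genes, 7 were not called, and whether the family differs from the hnRNP genes was not tested. *Srsf1*, which encodes SF2/ASF, one of the first SR proteins described, had signals of 5128 and 4919 with CPEB2 IgG against 1847 and 1748, a difference of 1.54 ± 0.03 (adjusted p = 0.00907, limma). *Srsf9* had 6870 and 7983 against 2748 and 2430, and was 2.97-fold higher (adjusted p = 0.00967, limma). *Srsf4* had 6228 and 5235 against 2473 and 1935, and was 2.71-fold higher (adjusted p = 0.0105, limma). *Srsf12* was also called, at 1.26. For these 4 genes the arrays did not overlap between antibodies, as for 33.7% of all genes on the higher side. *Srsf2*, which encodes SC35, a protein of nuclear speckles, was lower with 448 and 368 against 805 and 659. Its difference of -0.79 ± 0.04 lay at the edge of the threshold (adjusted p = 0.0497, limma). The other detected probes of *Srsf2* gave 0.12 and 0.20 and were not called. *Srsf3* (-0.47) and *Srsf11* (-0.39) had negative values and were not called, and their sign turned under centring by GC content and under the mean of probes. The symbol *Sfrs18* on the array corresponds to *Pnisr* in RefSeq, and its value of 0.69 was not called.

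The Snrp family held both the highest and the lowest member. Sm proteins form a ring of 7 subunits (B, D1, D2, D3, E, F and G) around the snRNA, so their messages encode parts of one complex. *Snrpg*, for subunit G, had signals of 69974 and 110227 with CPEB2 IgG against 11080 and 9332, the largest difference among the members. It came to 3.16 ± 0.60, or 8.96-fold (adjusted p = 0.00543, limma). *Snrpe*, for subunit E, had 25829 and 27232 against 8185 and 7233, a difference of 1.84 ± 0.14 (adjusted p = 0.00688, limma). *Snrpf*, for subunit F, was 2.38-fold higher with a difference of 1.25 ± 0.32. E, F and G, which join the ring together as one subcomplex, were all called higher. Of the 7 ring genes 3 were higher and 2 lower, where 21.2% and 20.4% of all genes were. Whether calls follow the subcomplexes was not tested.

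*Snrpb*, for subunit B, went the opposite way and was the lowest member. It had 151 and 180 with CPEB2 IgG against 1230 and 1424, a difference of -2.95 ± 0.01 (adjusted p = 0.00543, limma). *Snrpd3*, for the D3 subunit that pairs with B, had 937 and 794 against 3358 and 4299, a difference of -2.09 ± 0.46 (adjusted p = 0.00723, limma). *Snrpn* encodes SmN, a near-identical substitute for B in brain from an imprinted gene, and had 4394 and 4126 against 9310 and 11495. It was lower by the same test, at -1.23 ± 0.32 (adjusted p = 0.0199, limma). Cross-hybridization between *Snrpb* and *Snrpn* was not tested. *Snrpd1* (0.38) and *Snrpd2* (-0.59), for the remaining pair, were not called. The brightest *Snrpd2* probe is annotated to chromosome 10 and its other 2 probes to chromosome 7, so which copy was measured is uncertain. No scaling run turned the sign of *Snrpg*, *Snrpe*, *Snrpb*, *Snrpd3* or *Snrpn*, but *Snrpn* was not called after spike-in scaling (-1.02, adjusted p = 0.0657, limma), and its most downstream probe gave -0.30 and was not called. Outside the ring, the U1 protein gene *Snrpa* (1.57 ± 0.44, adjusted p = 0.0127, limma) and the U2 protein gene *Snrpb2* (0.95 ± 0.17) were higher, while *Snrpa1* and *Snrpc* were not called.

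**Figure D2:**
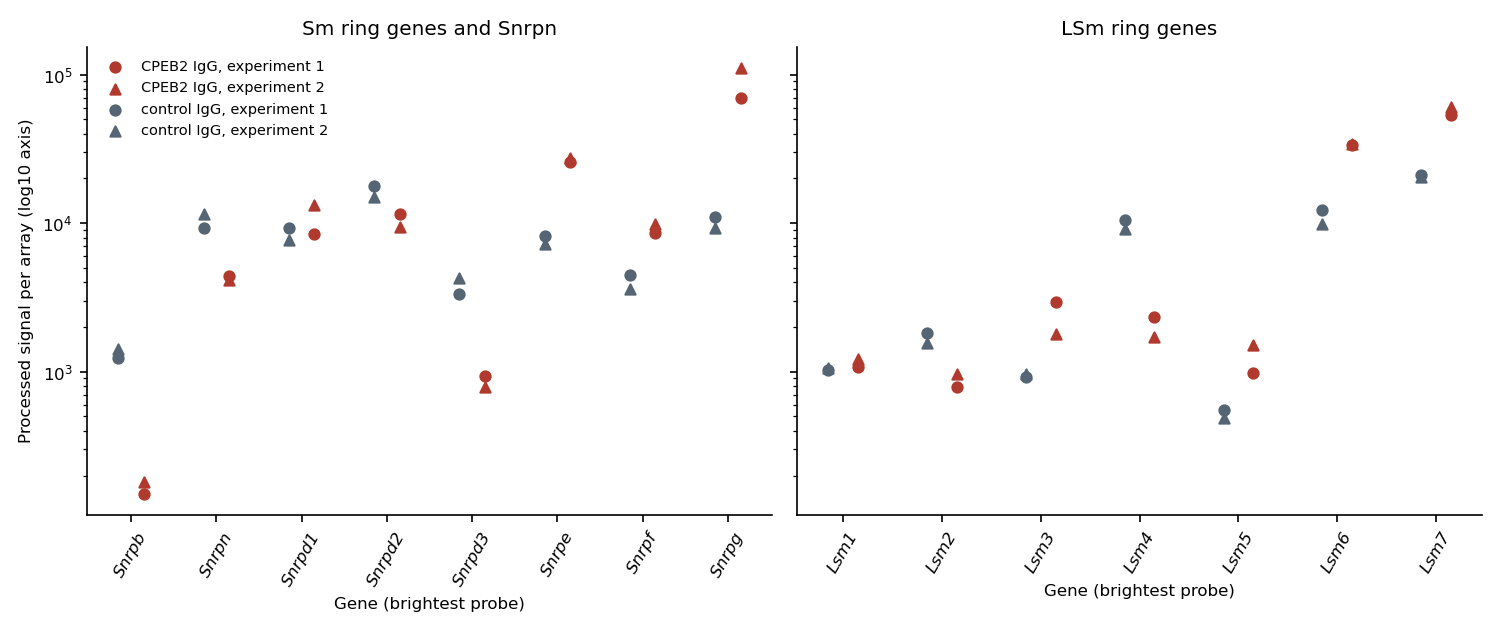
The processed signal of each array on a log10 axis for the Sm genes and Snrpn (left) and the LSm genes (right), with CPEB2 IgG in red, control IgG in grey, and circles and triangles for experiments 1 and 2. Red points lie above grey for Snrpe, Snrpf, Snrpg, Lsm1, Lsm3, Lsm5, Lsm6 and Lsm7, and below grey for Snrpb, Snrpn, Snrpd2, Snrpd3, Lsm2 and Lsm4. Of these, Lsm1 and Snrpd2 were not called. Heights are comparable within a gene only.

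LSm proteins form similar rings, one around U6 snRNA in the nucleus and one that acts in mRNA decay in the cytoplasm, and subunits 2 to 7 are common to both. All 6 of these genes were called, 4 higher and 2 lower, where 21.2% and 20.4% of all genes were. *Lsm6* had 33398 and 34170 with CPEB2 IgG against 12216 and 9843, a difference of 1.68 ± 0.20 (adjusted p = 0.00827, limma). *Lsm7* had 53732 and 60195 against 21189 and 20334, a difference of 1.51 ± 0.12 (adjusted p = 0.00971, limma). *Lsm3* (1.34 ± 0.60) and *Lsm5* (1.28 ± 0.51) were also higher, with a wider spread between experiments. *Lsm4* was lower, with 2324 and 1708 against 10516 and 9163 and a difference of -2.25 ± 0.22 (adjusted p = 0.00566, limma). *Lsm2* was lower at -0.91 ± 0.32 (adjusted p = 0.043, limma), a call that was lost in 7 alternatives, among them median centring (-0.69, adjusted p = 0.113). *Lsm1*, the subunit that marks the cytoplasmic ring, was not called (0.19).

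*Lsm11*, which encodes a subunit of the U7 snRNP that matures histone mRNA, was lower at -2.43 ± 0.65 (adjusted p = 0.00698, limma), and at -1.13 after normexp background correction. Its signals were low, at 26 and 30 against 205 and 120, yet above background on each of the 4 arrays. *Lsm10*, for the partner subunit of U7, was not called (0.33). *Lsm14a*, which encodes a translational repressor found in P bodies, differed most between the experiments. Signals of 3270 and 4599 with CPEB2 IgG stood against 7231 and 1977 with control IgG, so the sign turned from -1.06 in experiment 1 to 1.24 in experiment 2. Opposite signs of over 1 in both experiments occurred in 0.827% of all genes.

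The SF3a and SF3b complexes are parts of the U2 snRNP that hold it at the branch point. *Sf3b2* had 2178 and 1889 with CPEB2 IgG against 6321 and 7497, and fell by 1.71 on the log2 scale (SD 0.36, adjusted p = 0.00928, limma). *Sf3a1* had 464 and 499 against 1667 and 1354, and fell by 1.59 (SD 0.25, adjusted p = 0.00955, limma). The other 6 genes were not called and lay between -0.32 (*Sf3b4*) and 0.63 (*Sf3b1*), with *Sf3b3* at 0.30. *Sf3b1*, which encodes the largest SF3b subunit, thus had a positive value without passing the test.

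Prpf genes encode proteins of the U4/U6.U5 tri-snRNP and of the complexes that follow it. *Prpf6*, which bridges the U5 and U4/U6 particles, had 724 and 677 with CPEB2 IgG against 3342 and 3223. Its difference was -2.18 ± 0.07 (adjusted p = 0.00562, limma). *Prpf31*, a U4 protein whose gene is mutated in retinitis pigmentosa, had 1461 and 1029 against 5789 and 5191, a difference of -2.11 ± 0.29 (adjusted p = 0.00617, limma). *Prpf40b* (-1.44 ± 0.09), *Prpf4b* (-1.24 ± 0.06) and *Prpf19* (-1.14 ± 0.34) were lower as well. The other probes of *Prpf40b* (-0.16) and *Prpf4b* (0.26) were not called. *Prpf18*, a factor of the second catalytic step, was the single gene of the family called higher, with 2271 and 3382 against 1093 and 1109 (1.39 ± 0.35, adjusted p = 0.0152, limma). *Prpf8*, at the heart of the spliceosome, had 0.56 and was not called. *Prpf3* (0.62, adjusted p = 0.156) was not called by limma either.

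One comparison sets the hnRNP and SR genes against the short Snrp and Lsm genes. The brightest probe started at a median of base 1790 of its annotated transcript in the former and of base 533 in the latter. The 30 hnRNP and SR genes had a median of 0.78, with 0.69 and 0.86 in the experiments, and 14 were higher and 2 lower. The 24 Snrp and Lsm genes had a median of 0.14, with -0.19 and 0.32, and 9 were higher and 6 lower. The medians differed by 0.64, or 0.88 and 0.54 in the experiments (SD 0.24, n = 2), a difference of the same sign in both. In either direction, 15 of the 24 and 16 of the 30 were called, where 41.6% of all genes were. With the most upstream probe of each gene in place of the brightest, a choice made after seeing the data, the medians were 0.21 and 0.14 and the difference was 0.07. Calls among the 75 members were then 17 higher and 17 lower, where 15.8% and 21.0% of all genes were called. Under the most downstream probe the difference was 0.82, with 26 members higher and 11 lower (21.8% and 19.6% of all genes), and averaging the probes of a gene gave 0.31.

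**Figure D3:**
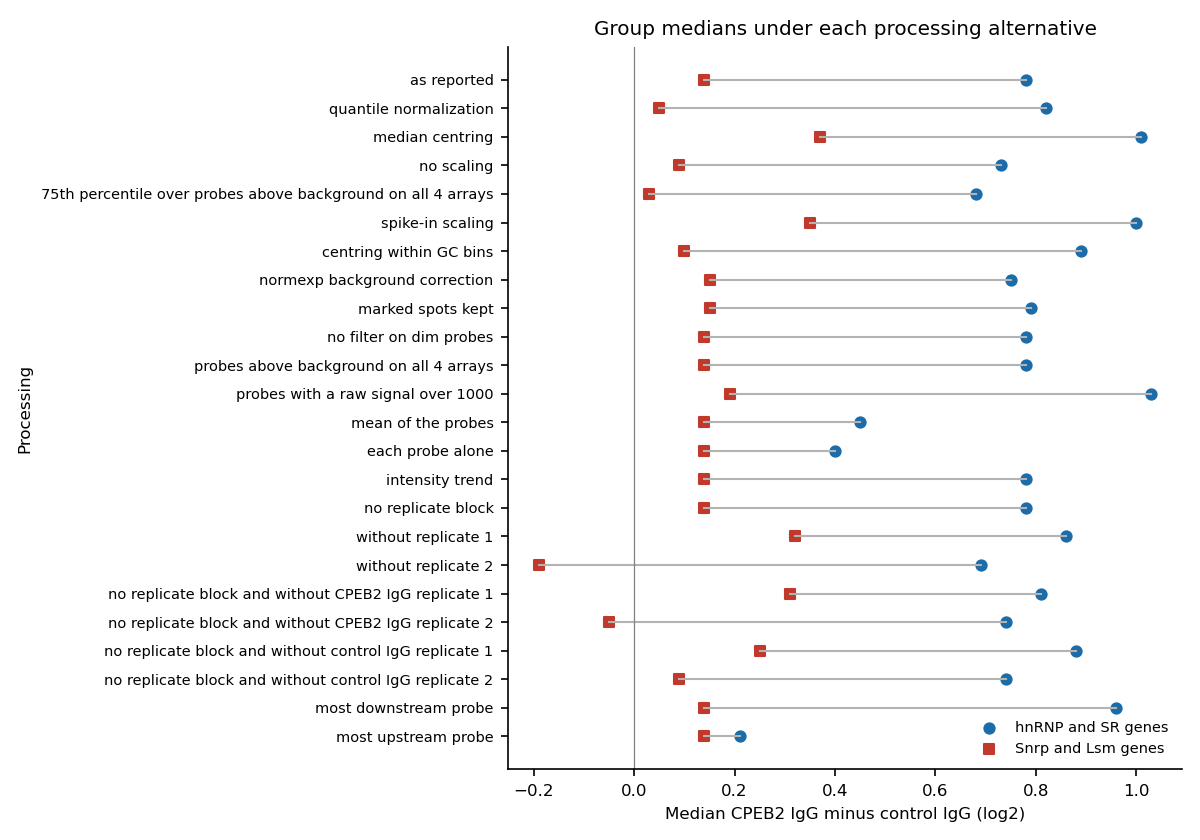
The horizontal axis is the median log2 difference of CPEB2 IgG minus control IgG, for the hnRNP and SR genes (blue circles) and the Snrp and Lsm genes (red squares), with one line per processing alternative. The blue point is right of the red one on every line, by 0.64 as reported, and the points lie closest under the most upstream probe, at 0.07.

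The dependence on the probe was visible inside single genes. Of the 127 detected member probes, each tested alone, 34 were higher and 25 lower, against 19.9% and 21.6% of all 26710 probes. For 4 of the 37 members with over 1 detected probe, probes of the same gene were called in opposite directions (10.8%, against 4.06% of 5548 such genes overall), and all 4 were hnRNP genes. In each, the probe nearer the 5′ end was lower and the probe nearer the 3′ end was higher with CPEB2 IgG. For the 3 of these genes with 2 probes each, the first 30 bases of both are shown 5′ to 3′, because they mark the stretches of message that gave opposite directions. *Hnrnpa3*, with 7 probes, is given by its values. Letters are those of the deposited files, and coordinates are those of the whole 60-base probe on mm9.
Hnrnpab upstream probe, chr11:51414914-51414973, minus strand: tagtacaaattacggaaagagccagcgacg
Hnrnpab downstream probe, chr11:51413628-51413687, minus strand: gggatctgagctttgtataacaaccacttt
Hnrnpf upstream probe, chr6:117873933-117873992, plus strand: gagtggtgaggcttttgttgaacttgagtc
Hnrnpf downstream probe, chr6:117875521-117875580, plus strand: ccttgacttaaagctttctttgtactgtga
Hnrnpc upstream probe, chr14:52703914-52703973, minus strand: attgggaatctcaacactctggtggtcaag
Hnrnpc downstream probe, chr14:52694562-52694621, minus strand: gtgttcattaattcatgattgccctgcgcc

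The upstream *Hnrnpab* probe had 2682 and 2453 with CPEB2 IgG against 6268 and 6376, a difference of -1.25 ± 0.15 (adjusted p = 0.0145, limma over all probes), while the downstream one gave the 2.04 above. The annotation places these probes 1286 bases apart in the same transcript. *Hnrnpf* gave -1.46 ± 0.61 at its upstream probe, with 276 and 386 against 1088 and 798, and 1.56 at its downstream probe. In *Hnrnpc*, which encodes a core protein of the nuclear hnRNP particle, the upstream probe gave -1.21 ± 0.26 and the downstream probe 0.89 ± 0.31. *Hnrnpa3* ran from -1.32 at the most upstream to 1.14 at the most downstream probe, and its brightest probe, between them, was not called (0.84). Fold changes of these 4 genes therefore belong to the named stretch of the message and not to the gene as a whole.

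**Figure D4:**
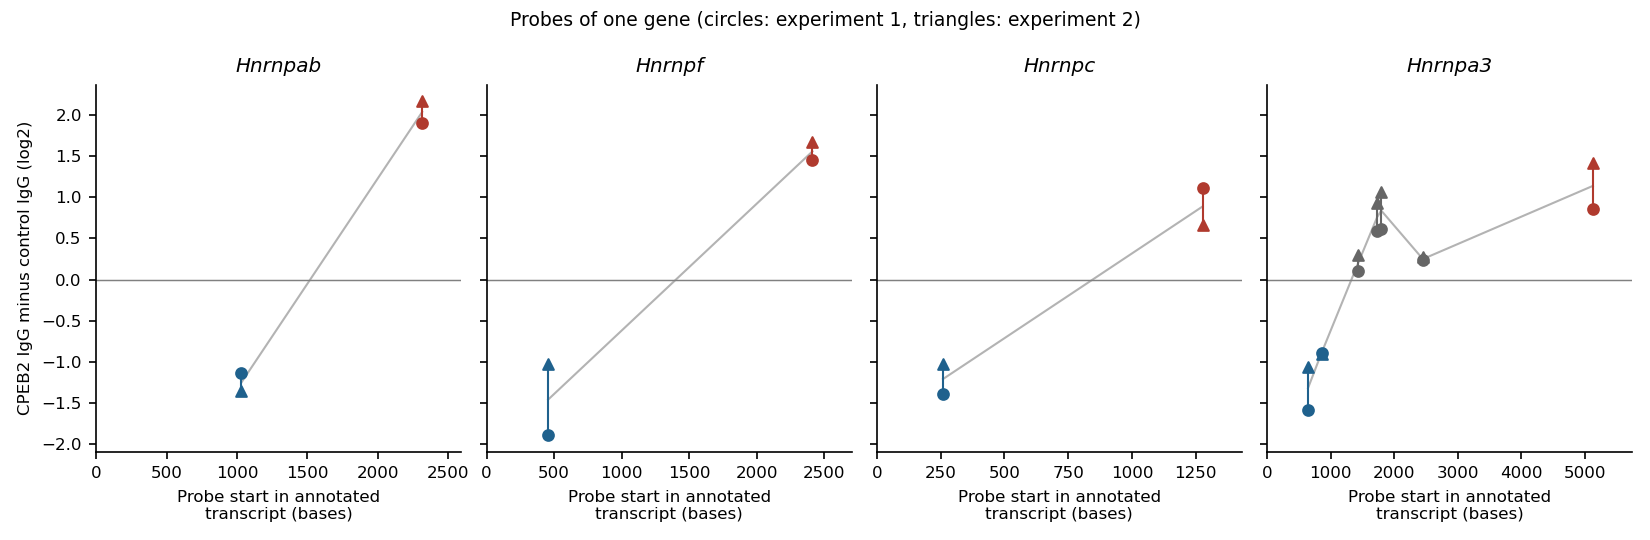
Log2 difference of CPEB2 IgG minus control IgG for each detected probe of Hnrnpab, Hnrnpf, Hnrnpc and Hnrnpa3, against the base at which the probe starts in its annotated transcript. Circles and triangles are experiments 1 and 2, red is called higher, blue called lower and grey not called, and probes of Hnrnpf and of Hnrnpa3 are annotated to 2 transcripts each. Probes run from -1.25 to 2.04 in Hnrnpab and from -1.32 to 1.14 in Hnrnpa3.

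The same direction was common on the array. Of 5053 genes whose outermost detected probes lay at least 100 bases apart, the downstream probe had the more positive difference in 73.0%, with a median gap of 0.55. Downstream probes were also the brighter ones in 70.5% of these genes and differed in GC content by a median of -3.33 percentage points, downstream minus upstream (-5.0 in the members). Among the members this held for 26 of 35 genes (74.3%), with a median gap of 0.74, and for 9 of the 10 hnRNP genes, with a median gap of 1.52. In the members the downstream probe was brighter in 22 of 35, and in 9 of the 10 hnRNP genes, and the part of brightness and GC content in the gap was not tested. Of the SR genes 7 of 9 followed it, of the Snrp and Lsm genes 7 of 9, and of the Sf3 and Prpf genes 3 of 7. *Srsf1* was an exception, with 1.54 upstream and 0.37 at its most downstream probe. By contrast, both probes of *Snrpg* (2.85 and 3.16), both of *Snrpe* (1.89 and 1.84) and all 4 of *Lsm6* (1.67 to 2.30) were called higher, so these short genes were higher whichever probe was taken. *Snrpb*, *Snrpd3* and *Lsm4* had 1 detected probe each. Annotation of exons and untranslated regions on mm9 was not used here, so the probes are placed by order alone.

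Base composition of the probe moved with the difference too. Over all genes, the median was 0.52 where the brightest probe held at most 36% GC and -0.60 where it held over 50%. hnRNP probes had a median GC content of 35.0%, against 41.7% for SR, 44.2% for Snrp, 42.5% for Lsm and 41.7% for all genes. After each array was centred within 20 bins of GC content, the hnRNP and SR genes exceeded the Snrp and Lsm genes by 0.79 in place of 0.64. With at most 36% GC, over 36% to 42% and over 42% to 50%, the hnRNP and SR genes had medians of 0.84, 1.26 and 1.08. The Snrp and Lsm genes had 0.19, -0.99 and 0.64 there. Above 50% GC, the 4 hnRNP and SR genes, all of them SR genes, had a median of -0.43 and the 3 Snrp and Lsm genes -2.25. *Lsm4* and *Prpf6*, both at 55.0% GC, moved from -2.25 to -1.75 and from -2.18 to -1.68 with this centring and stayed called, while *Snrpe* and *Lsm6*, at 45.0%, moved from 1.84 to 2.15 and from 1.68 to 1.99. Of the 28 called genes that the naming rule gave, 25 stayed called, and *Srsf2* (-0.33, adjusted p = 0.38), *Hnrnpk* (-0.74, adjusted p = 0.0657) and *Lsm2* (-0.68, adjusted p = 0.0971) did not pass limma's test under it.

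**Figure D5:**
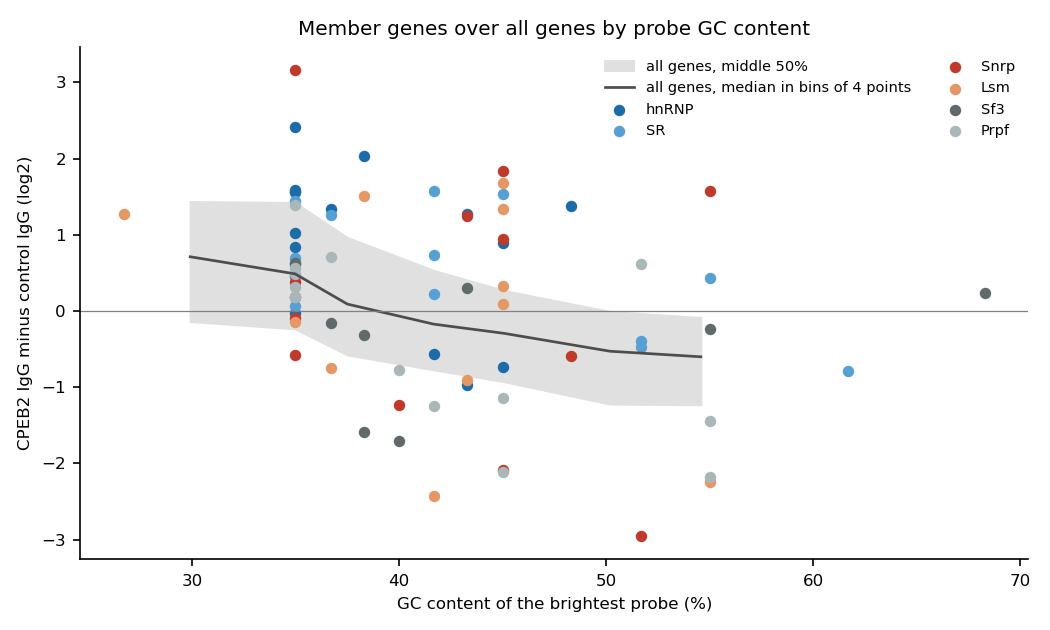
Log2 difference of CPEB2 IgG minus control IgG against the GC content of the brightest probe (%). Colored points are member genes by family, the black line is the median of all genes in bins of 4 percentage points that hold at least 100 genes, and the grey band is their middle 50%. The line falls as GC rises, and Snrpa (55.0%, 1.57) and Snrpb (51.7%, -2.95) lie far on either side of it.

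CPEB proteins are known for binding the cytoplasmic polyadenylation element (CPE), here searched for as TTTTAT or TTTTAAT on the probe's strand, which has the sense of the mRNA. Neither string contains the other, and only the probe's 60 bases could be searched. The brightest probe held one in 7 of 75 members (9.33%), and in 5.75% of all genes. In all genes the median difference was 0.54 with the string and -0.14 without it, whereas in the members it was -0.03 with and 0.36 without. The 7 genes thus did not show the difference of medians seen over all genes, and this small number of genes gives no test of it. Both strings consist of A and T only. Over all genes, the median was 0.52 where the brightest probe held at most 36% GC. The part of base composition in the difference between genes with and without the string was not tested. Windows of up to 30 bases around the string, with the string in capitals, are printed for probes called in either direction and for *Hnrnpa1*, whose value was close to 0. The positions are again those of the whole probe on mm9.
Hnrnpul2, chr19:8908365-8908424, plus strand: gtgTTTTATcagatgtctgt
Hnrnpm, chr17:33783252-33783311, minus strand: attaattTTTTAATgattggggttc
Lsm6, chr8:81330579-81330638, minus strand: catggaaccgcTTTTAATcaagatggact
Prpf4b, chr13:34991032-34991091, plus strand: ttgtcagtagaTTTTATcgtgctccgga
Hnrnpa1, chr15:103075181-103075240, plus strand: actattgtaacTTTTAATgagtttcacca

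*Hnrnpul2* (1.59) and *Hnrnpm* (1.03 ± 0.14, adjusted p = 0.0257, limma) were the 2 genes with the string that were called higher, and *Prpf4b* (-1.24) the 1 called lower. Of the 1132 genes on the array with the string, 39.1% were called higher and 7.86% lower. The *Lsm6* window lies in the dimmest and most downstream of its 4 probes, which had 1080 and 985 with CPEB2 IgG against 238 and 199 and the highest difference of the 4, at 2.30 ± 0.05. *Sf3a3* (-0.16), *Sf3b4* (-0.32) and *Srsf10* (0.06) held the string and were not called. A match is a string of letters and says nothing about binding. Whether a string lies in the 3′ untranslated region was not determined, and that of *Prpf4b* is in the more upstream of its 2 detected probes. A message may also hold CPEs outside its probe.

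Splicing genes outside the naming rule were followed in 7 lists that hold 143 genes, 142 of them tested. Of these, 34 were called higher and 37 lower, where 21.2% and 20.4% of all genes were. Their median was -0.18, which is nearer to all genes than to the members. The counts of each list below stand beside the same shares of all genes, and no list was tested against them. The hnRNP proteins that carry other gene names had 12 of 28 higher and 7 lower (median 0.30). Among them *Ptbp1*, which encodes a repressor of neuronal exons, had 4682 and 4915 with CPEB2 IgG against 778 and 722 and a difference of 2.73 ± 0.08 (adjusted p = 0.00543, limma). *Rbmx*, for hnRNP G, was the lowest of that list at -1.88. The SMN complex and its partners, which load Sm proteins onto snRNA, gave 4 higher and 7 lower of 15 tested (median -0.68). *Tgs1*, the enzyme that hypermethylates the snRNA cap, was highest at 2.15 and *Phax*, the snRNA export adaptor, was lowest at -2.12.

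Proteins of the U1 and U2 snRNPs and the 3′ splice site outside the rule gave 1 higher and 5 lower of 17 (median -0.42). Here too, 21.2% and 20.4% of all genes were called higher and lower. The 1 higher was *Smndc1*, for the SMN-related factor SPF30, with 1715 and 2075 with CPEB2 IgG against 237 and 198 (3.18 ± 0.34, adjusted p = 0.00543, limma). *Htatsf1*, for a U2-associated factor, stood at the other end with 671 and 627 against 12677 and 7466 (-3.85 ± 0.43, adjusted p = 0.00543, limma). The tri-snRNP and minor spliceosome list gave 5 higher and 5 lower of 21 (median -0.37), from *Sart3* at 2.13, a U6 recycling factor, to the U5 GTPase gene *Eftud2* at -1.99. Catalytic complex and release factors gave 4 higher and 7 lower of 25 (median -0.10), from *Cwc25* at 1.49 to *Cdc5l* at -2.10. SR-related proteins gave 3 higher and 4 lower of 24 (median 0.03), from *Son* at 1.89 to *Zranb2* at -1.49. Kinases and import factors of SR proteins gave 5 higher and 2 lower of 12 (median 0.37), from the importin gene *Tnpo1* at 1.88 to the kinase gene *Srpk2* at -1.54.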

How the data were processed

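For every array the authors deposited the output of Agilent's Feature Extraction software (version 10.5.1.1), whose processed signals are intensities corrected for background and not yet scaled between arrays. Symbols and mm9 positions of probes come from the same files. Spots with a non-uniformity or outlier mark were removed, which dropped 66 probes. Log2 signals were expressed relative to an array's own 75th percentile over 55615 probes. The brightest probe among those well above background on at least 2 of 4 arrays stood for a gene. The linear model (limma 3.58.1, R 4.3.3) contained antibody and experiment, and Benjamini-Hochberg adjustment ran over all genes. The methods state that lysate was divided between the antibodies, and the study's supplement sets arrays of the same number against each other. Deviations within a pair had a correlation of 0.203. The number of arrays limits the precision. The start given for a probe was checked as a transcript position, since 99.4% of 3739 probe pairs of one accession lay in that order, and at least as far apart to within 5 bases, on mm9. Of the 75 symbols, 74 were RefSeq symbols and 1 a synonym. Members and lists were chosen with earlier results of these data known. Named genes are, in each of 6 families, up to 3 highest and 3 lowest that moved the same way in both experiments, members with probes called in opposite directions, *Lsm14a* for its opposite experiments, and the highest and lowest gene of each outside list. Other members of the same complexes, *Hnrnpa1*, and genes with the CPE string were named after their values were seen. 1 gene that the rule names is not reported here. Alternatives were other scalings, background corrections, filters and probe choices, an intensity trend, no block, and arrays left out. Python 3.11.15 with pandas 2.3.3 did the rest.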

Additional observations from a re-analysis of the deposited data

How the results depend on the processing

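The hnRNP and SR genes had a positive median in each of the alternatives that gave one, and it lay above the median of the Snrp and Lsm genes in each. The reported median of 0.78 became 1.01 after median centring, 1.00 after spike-in scaling, 1.03 among probes with a raw signal over 1000, 0.45 with the mean of the probes, 0.40 with each probe alone, and, with probe choices added after seeing the data, 0.96 for the most downstream and 0.21 for the most upstream probe. The difference from the Snrp and Lsm genes became 0.31, 0.26 and 0.07 with the mean of the probes, each probe alone and the most upstream probe. The median of all genes shifted by 0.128 under quantile normalization, 0.227 under median centring, 0.211 under spike-in scaling, 0.19 under GC centring and -0.108 with the percentile over probes above background on all 4 arrays. Without a filter on dim probes, where more genes were tested, 13 members were called higher and 2265 and 1837 of all genes higher and lower. Each probe alone gave 25 member probes lower, and all genes called lower numbered 2330 with spike-in scaling, 2642 among probes over 1000 and 2573 under the methods' thresholds. The study's methods set thresholds for enrichment only, so the last count has no counterpart in the study.

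Without the replicate block, 27 members were higher and 17 lower, and 4260 and 3999 of all genes. Leaving out 1 experiment, the difference of medians was 0.54 to 0.88, the hnRNP and SR median 0.69 to 0.86 and the Snrp and Lsm median -0.19 to 0.32. Leaving out 1 array, without the block, gave a difference of 0.51 to 0.79, 17 to 26 members higher and 10 to 14 lower, and 2390 to 4251 of all genes lower. The fewest lower calls over all genes came without control IgG replicate 1 (2390) and replicate 2 (2530), and 10 members were lower without the latter.

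These counts of lost calls leave out the runs with the most upstream probe, the most downstream probe and each probe alone. Of 39 named members 28 were called, and 16 of these passed in every other alternative that held them. The other 12 lost the call in at least 1: *Srsf2* in 9, *Hnrnpk* in 8, *Hnrnpc* and *Lsm2* in 7, *Snrpn* in 4, *Lsm3* and *Prpf18* in 2, and *Hnrnpab*, *Hnrnpf*, *Srsf1*, *Hnrnpul2* and *Snrpa* in 1. With each probe alone, *Prpf40b*, among the 16, was not called at its most downstream probe (-0.16). The most upstream probes of *Hnrnpab* (-1.25) and *Hnrnpf* (-1.46) were called lower. With the mean of the probes *Hnrnpab* gave 0.40, *Hnrnpf* 0.05, *Srsf1* 0.78, *Srsf2* -0.16 and *Prpf40b*, still called, -0.80. *Hnrnpk* turned to 0.05 under normexp, where another probe was the brightest, and *Hnrnpc* to -0.16 with the mean of its opposed probes. Of genes not called, *Srsf11* turned to 0.12 and *Srsf3* to 0.04 under GC centring, and to 0.18 and 0.15 with the mean of the probes. *Lsm14a* turned to -0.02 with the percentile over probes above background on all arrays, to -0.16 without CPEB2 IgG replicate 2 and to -0.82 without control IgG replicate 2. The causes were not tested.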
